A study of Mus musculus with 7 samples.

Results

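The genes described here encode the subunits of the oxidative phosphorylation system: complexes I to V of the inner mitochondrial membrane and cytochrome c. They were chosen by name alone from the protein-coding rows of a deposited table of gene counts, and 102 of the 55487 genes in the table met the rule. Of these, 89 are nuclear genes and 13 lie on the mitochondrial genome. Complex I has 36 nuclear and 7 mitochondrially encoded members, complex II 4 nuclear, complex III 9 and 1, complex IV 21 and 3, and complex V 18 and 2, and Cycs encodes cytochrome c. Ndufa4, its relative Ndufa4l2 and Cox7a2l were counted with complex IV, Atp5o appears under 2 identifiers, and Cox5b-ps and Ndufb1-ps are listed as protein-coding in the table in spite of their names.

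RNA was sequenced from inguinal white adipose tissue (groin fat that lies under the skin) of NOD/ShiLtJ mice, in which autoimmune diabetes arises spontaneously. In 4 libraries, labelled imBAT, the mice had been given CB-100, the proteins above 100 kDa from buffer that brown adipocytes had conditioned, at 1.5 mg per kg under the skin for 7 days. In 3 libraries, labelled sham, the mice had been given KRBH buffer. Treatment began at a blood glucose of 190 to 230 mg/dL and the tissue was taken 2 to 8 weeks after the injections, and which library was taken at which week is not given in the sources used here. All mice shared the NOD background, and age and sex were not given. Libraries were numbered in accession order within a group, so that a number is only a name, and values below are listed in that order. Whether the libraries of a group come from different mice is not given, and p-values then measure only the spread from library to library, which may be technical.

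Oxidative phosphorylation passes electrons from NADH (complex I) and succinate (complex II) through ubiquinone, complex III and cytochrome c to oxygen at complex IV, and complex V, the ATP synthase, makes ATP from the proton gradient that complexes I, III and IV build. Every complex except complex II combines subunits made in the cytosol from nuclear genes with subunits made inside the mitochondrion from mitochondrial DNA. In fat, white adipocytes carry few mitochondria and brown adipocytes many, and several subunits of complex IV have isoforms that are used mainly in muscle, heart, brown fat, lung or testis.

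The libraries held 43360208 to 63650016 counts in imBAT and 41025786 to 44983250 in sham. The tissue label was checked against white adipocyte markers, which were present in all 7 libraries and differed widely between the groups: the summed level of 15 markers was 30273, 16995, 39490.2 and 29279 CPM in imBAT, against 5478, 2765 and 5684 CPM in sham, and 15 of 15 rose (median log2 fold change 3.10). CPM are counts relative to a library total scaled by TMM, edgeR's between-library scaling. Lymphocyte markers ran the other way, with 8 of 8 T cell markers lower (median -1.51, summed level 160 to 503 CPM in imBAT and 956 to 1194 in sham) and 7 of 7 B cell markers lower (median -1.81, 214 to 578 CPM in imBAT and 1438 to 1664 in sham). Red blood cell markers rose in 5 of 5 (364 to 786 CPM in imBAT and 112 to 219 in sham), and of 6 macrophage markers 3 rose and 3 were not called (692 to 1766 CPM in imBAT and 983 to 1091 in sham). These differences run through the whole comparison, and in bulk tissue fewer cells of a type and less RNA per cell cannot be told apart. What part the marker differences play in the subunit values was not tested.

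Subunit RNA was higher in imBAT almost throughout. Of the 99 members with enough counts to test, 88 rose, 0 fell and 11 were not called, at an adjusted p under 0.05 (edgeR's quasi-likelihood test, Benjamini-Hochberg over all genes tested). Of all 26393 genes tested, 43.5% were called, 24.3% higher and 19.3% lower. Of the protein-coding genes among them 34.2% were called higher. The members had a median log2 fold change of 0.96, a 1.95-fold difference, against -0.01 over all genes tested and 0.15 over the 16106 protein-coding genes tested. The interquartile range of the members was 0.73 to 1.17. In 88 members all 4 imBAT libraries lay above all 3 sham libraries, against 26.8% of all genes tested, and in 0 members did all imBAT libraries lie below (25.2% of all genes). These are nearly the same 88 genes: Atp5l separated without being called and Ndufa12 was called with overlapping groups, a pair singled out after the values were seen.

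Scaling and the sham libraries set limits to all counts. Upper-quartile scaling moved the median of all genes to -0.25 and the split of calls to 36.6% higher, against 55.8% higher with TMM, and left 75 members called higher and 1 lower. A scaling moves all genes together, so the distance of the members' median from that of all genes, 0.97 under both, is the same by construction. Without sham replicate 2 the test called 67 members higher, while the genes called in all dropped to 7519, against 11491 with all 7 libraries.

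**Figure D1:**
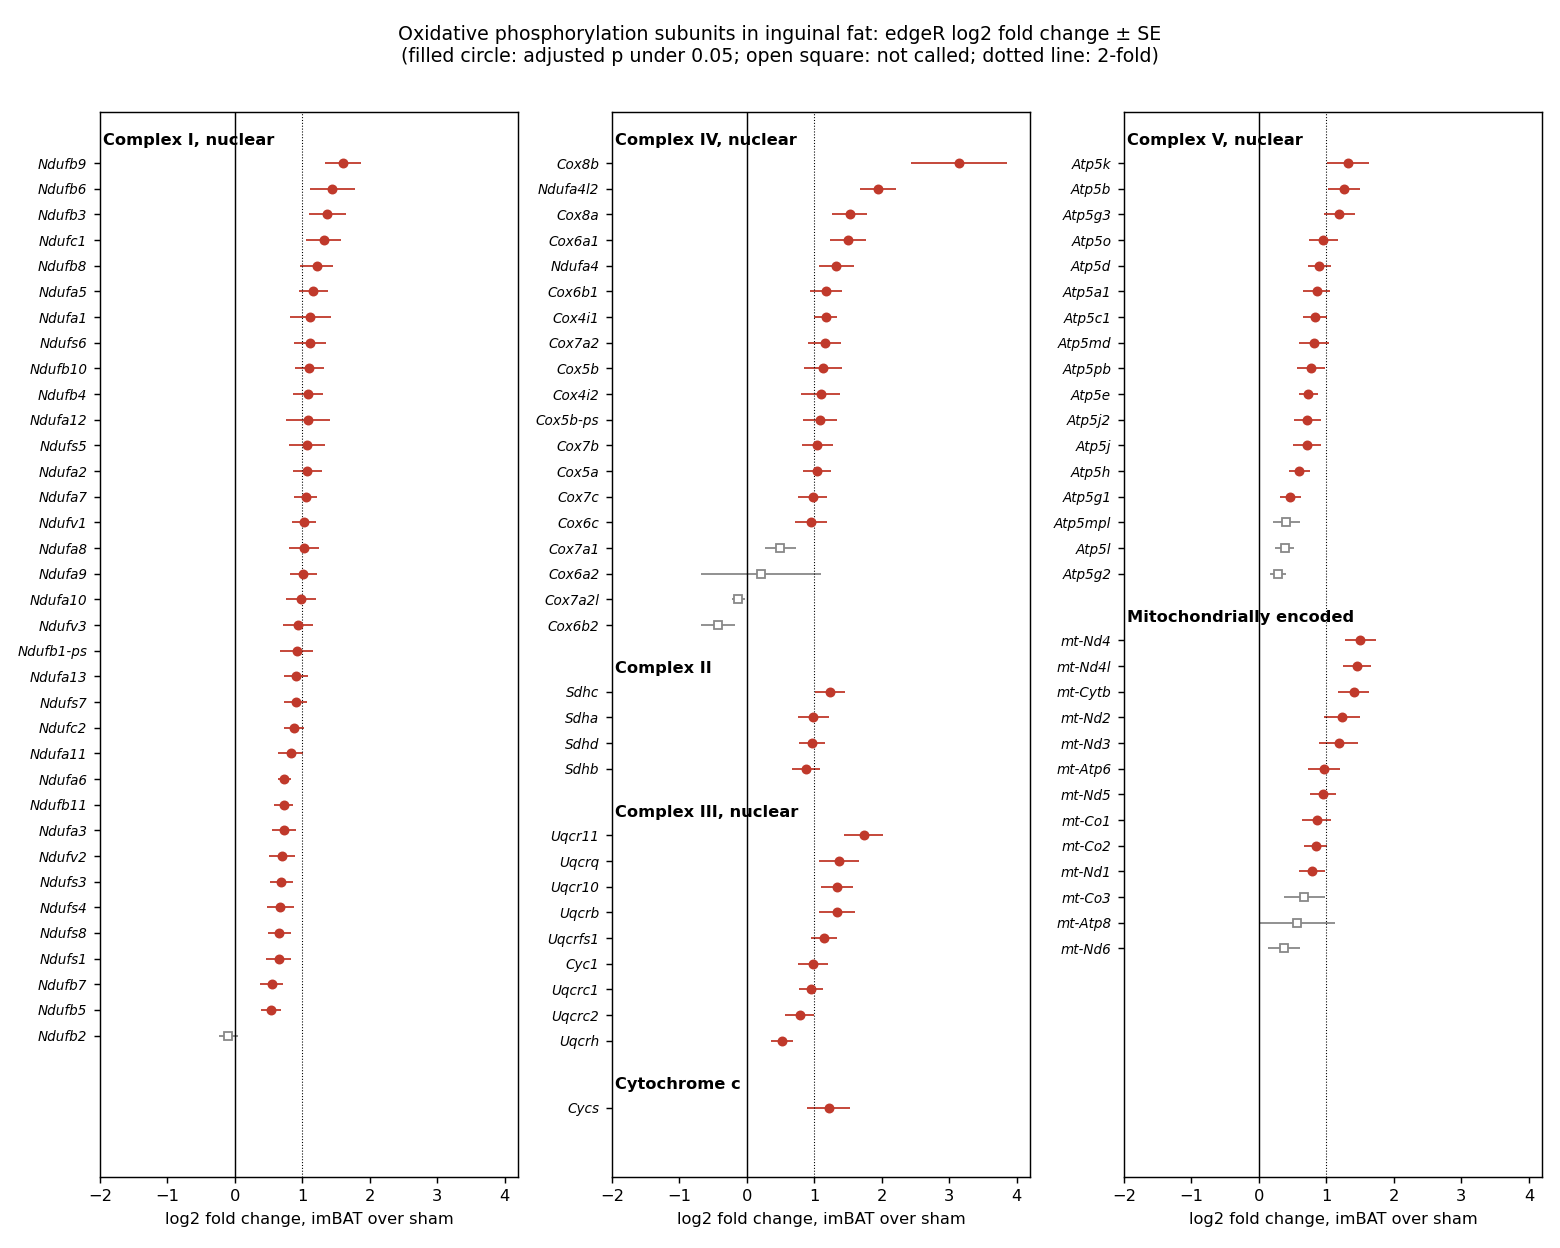
The log2 fold change (imBAT over sham, horizontal axis) of 98 of the 99 tested members is plotted with its SE, by complex and origin. Filled circles mark 87 called members, all right of 0, and open squares the 11 that were not called, which include Ndufb2, Cox7a2l and Cox6b2 left of 0.

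Summed over all nuclear members, imBAT libraries held 7226, 5849, 10535.7 and 6516 CPM, against 4226, 3431 and 3788 CPM in sham libraries. The 13 mitochondrially encoded genes summed to 17011, 16655, 24329.6 and 13665 CPM in imBAT and to 10136, 7751 and 8795 CPM in sham. Both sums were higher in every imBAT library than in any sham library, 1.97-fold and 2.01-fold by group means, and the ratio of mitochondrial to nuclear subunit RNA was 2.40 ± 0.32 in imBAT and 2.33 ± 0.07 in sham (SD, n = 4 and 3). Within complexes that ratio was less even. For complex III it was 3.69 to 4.68 in imBAT, above the 2.92 to 3.20 of sham, whereas for complex IV it was 4.49 to 6.08 in imBAT, overlapping the 5.85 to 6.03 of sham. The mitochondrial part is mt-Cytb alone for complex III and mostly mt-Co1 for complex IV (6545 of 6775 CPM by imBAT means). Counts given to nuclear copies of mitochondrial genes are not included. Set against the adipocyte markers the nuclear sum was lower in imBAT: per 1000 CPM of the 15 markers there were 239, 344, 267 and 223 CPM of nuclear subunits in imBAT, against 772, 1241 and 666 CPM in sham.

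**Figure D2:**
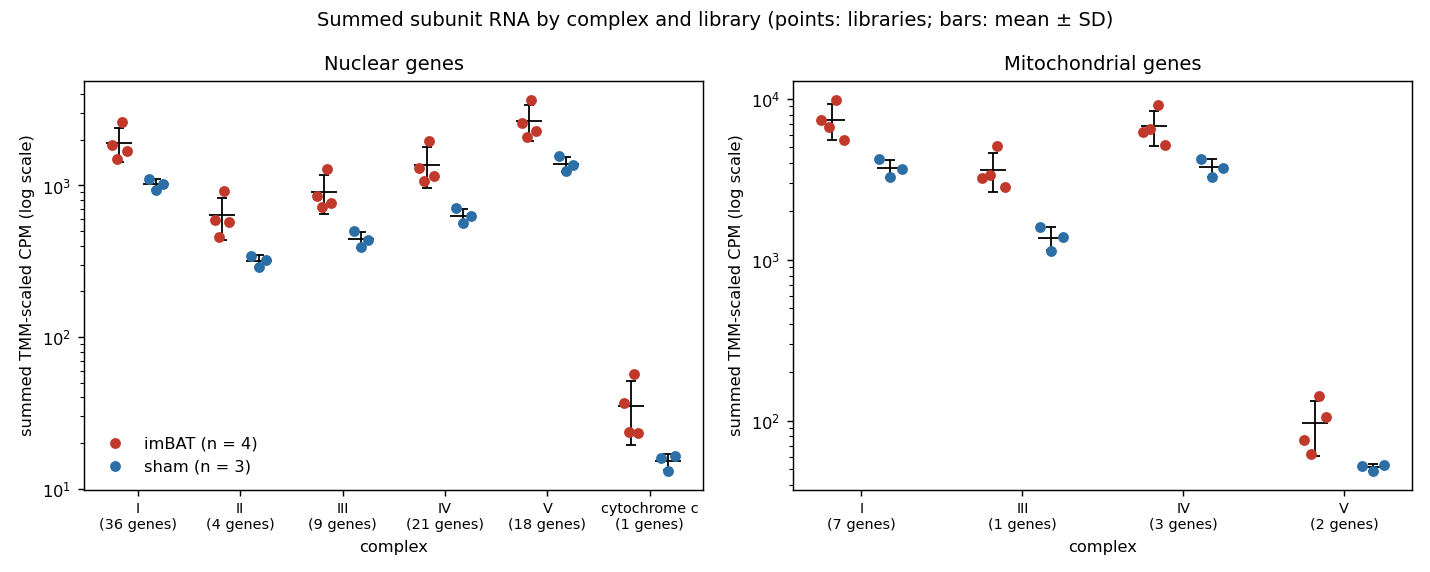
Summed TMM-scaled CPM (vertical axis, log scale) of the nuclear (left) and mitochondrially encoded (right) subunits of each complex, with a point for each library and the mean ± SD of each group. In every complex and for both origins the imBAT libraries lie above the sham libraries, and imBAT replicate 3 is the highest.

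The imBAT libraries differed among themselves in one direction. Replicate 3 was the highest of the 4 for 81 of 86 tested nuclear members and 13 of 13 mitochondrially encoded ones, and replicate 2 was the lowest for 63 of 86 nuclear members. Replicate 3 also had the highest summed adipocyte markers and the lowest T cell and B cell sums of the group. Without it the members' median was 0.71 and 87 members were called higher.

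Complex I oxidises NADH, hands its electrons to ubiquinone and pumps protons. Of its 36 nuclear members 35 rose, with a median of 0.96. The 7 core subunits, which carry the flavin and the iron-sulfur clusters and have bacterial counterparts, rose in 7 of 7 cases with a median of 0.70. The 29 accessory subunits, which surround and stabilise the core, rose in 28 cases with a median of 1.02. The difference between those medians was not tested.

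Among the core, Ndufv1, which binds NADH and the flavin (GRCm38 chr19:4007384-4012806), measured 101, 94, 150.4 and 99.7 CPM in the imBAT libraries, against 61.3, 50.5 and 52.3 CPM in the sham libraries (log2 fold change 1.02 ± 0.18, adjusted p = 0.00312; the number after ± is the SE, here and below). Ndufs7, which carries the last iron-sulfur cluster of the chain, had a log2 fold change of 0.90 (adjusted p = 0.00429). In both genes the groups did not overlap. Ndufv2, Ndufs3, Ndufs8 and Ndufs1, further iron-sulfur subunits and their scaffold, had log2 fold changes of 0.70, 0.69, 0.66 and 0.65. Ndufs1, the largest core subunit, measured 86, 73.1, 131 and 88.5 CPM in the imBAT libraries, against 59.99, 60.6 and 60.6 CPM in the sham libraries. Without any 1 of the 3 sham libraries its log2 fold change was still 0.65, but the call was lost (adjusted p = 0.0548 to 0.0650), as were those of Ndufs8 and Ndufv2 without sham replicate 2 or 3 (0.0596 to 0.0686), and upper-quartile scaling ended all 3 calls. Of the 50-base stretches of Ndufs3 transcripts, 39.7% occur in another annotated gene.

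The largest differences among the nuclear members of complex I lay in accessory subunits of its membrane arm. Ndufb9 (chr15:58933756-58939488) measured 43.7, 35.4, 77.3 and 45.5 CPM in the imBAT libraries, against 19.2, 14.4 and 16.2 CPM in the sham libraries (log2 fold change 1.60 ± 0.26, adjusted p = 0.00275). Ndufb6 measured 18, 9.6, 28.2 and 13.6 CPM in the imBAT libraries and 6.92, 5.76 and 6.43 CPM in the sham libraries (log2 fold change 1.45 ± 0.34, adjusted p = 0.00998). Ndufb3 measured 38.9, 25.9, 57.4 and 28.9 CPM in the imBAT libraries and 15.6, 12.6 and 15.8 CPM in the sham libraries (log2 fold change 1.37 ± 0.27, adjusted p = 0.00534). All 3 encode small subunits that sit on or in the membrane arm, and in each the lowest imBAT library was above the highest sham library. Of the 50-base stretches of Ndufb9 and Ndufb6 transcripts, 23.4% and 31.6% also occur in another annotated gene, so that part of their counts is uncertain. At the other end, Ndufb5 had the smallest log2 fold change among the called subunits of the complex, 0.53 (adjusted p = 0.0185), and was not called without sham replicate 3 (0.0728) or under upper-quartile scaling (0.115). Ndufb2, also of the membrane arm (chr6:39592574-39603382), was the only nuclear member of complex I that was not called: it measured 10.9, 10.7, 13.8 and 12.1 CPM in the imBAT libraries, against 13, 12.3 and 12.9 CPM in the sham libraries (log2 fold change -0.10 ± 0.14, adjusted p = 0.589), and the groups overlapped. Over 5628 bases of annotated exon Ndufb2 stood at 2.12 CPM per kb in imBAT, the lowest level of the nuclear members of complex I. Of its 50-base stretches 5.33% occur in other annotated genes. Whether its counts are those of the subunit's messenger was not tested.

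Complex II, succinate dehydrogenase, links the citric acid cycle to the respiratory chain and is the only complex with no mitochondrially encoded subunit. All 4 of its genes rose (median 0.97). Sdha, the flavoprotein that oxidises succinate, measured 317, 234, 509 and 325 CPM in the imBAT libraries, against 181, 164 and 179.8 CPM in the sham libraries (log2 fold change 0.98 ± 0.24, adjusted p = 0.0108). Sdhb, the iron-sulfur subunit, measured 119.8, 97.4, 179 and 116 CPM in the imBAT libraries and 80.5, 60.1 and 68.8 CPM in the sham libraries (log2 fold change 0.88 ± 0.21, adjusted p = 0.0106). Sdhc and Sdhd, which anchor the enzyme in the membrane, had log2 fold changes of 1.23 and 0.96 (adjusted p = 0.00373 and 0.006). No pair of groups overlapped in these 4 genes.

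Complex III passes electrons from ubiquinol to cytochrome c. All 9 nuclear members rose, with a median of 1.14. Uqcr11, a small peripheral subunit (chr10:80402997-80406830), measured 82.1, 63.8, 122 and 60.4 CPM in the imBAT libraries, against 33.2, 18.7 and 22.3 CPM in the sham libraries (log2 fold change 1.73 ± 0.29, adjusted p = 0.00299), a 3.32-fold difference. Uqcrq, another small subunit, measured 86.2, 73.6, 153 and 71.6 CPM in the imBAT libraries and 46.9, 31 and 34.1 CPM in the sham libraries (log2 fold change 1.36 ± 0.29, adjusted p = 0.00689). Uqcr10 followed with a log2 fold change of 1.34 (adjusted p = 0.0035). Cyc1, the haem-bearing cytochrome c1 of the complex, measured 132, 117, 216 and 124 CPM in the imBAT libraries and 85.7, 67.2 and 71.5 CPM in the sham libraries (log2 fold change 0.98 ± 0.22, adjusted p = 0.00865). The groups were apart in all of these. Uqcrc2, a core protein, and Uqcrh, the hinge protein beside cytochrome c1, had the smallest log2 fold changes, 0.78 and 0.52 (adjusted p = 0.0195 and 0.0276). Uqcrh was not called without imBAT replicate 1 or sham replicate 2 or 3 (adjusted p = 0.0554 to 0.0906) and Uqcrc2 not without sham replicate 2 (0.0711), and upper-quartile scaling ended both calls (0.133 and 0.0518). Of the 50-base stretches of Uqcrc2, 24.2% occur in another gene.

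Cytochrome c, the mobile carrier between complexes III and IV, is encoded in somatic tissue by Cycs (chr6:50562563-50566538). It measured 36.9, 23.6, 57 and 23.3 CPM in the imBAT libraries, against 16, 13.1 and 16.6 CPM in the sham libraries (log2 fold change 1.21 ± 0.32, adjusted p = 0.0153). Every imBAT library was higher than any sham library, but the call was lost without sham replicate 2 (0.0592). Of its 50-base stretches 28.5% occur in other annotated genes.

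Complex IV, cytochrome c oxidase, reduces oxygen to water. Of 19 tested nuclear members 15 rose (median 1.10). Leaving out the isoforms restricted to particular tissues, 12 of 13 rose (median 1.13). Cox8a, Cox6a1 and Ndufa4 had the largest log2 fold changes of the common subunits, 1.52, 1.50 and 1.32. Cox6a1 (chr5:115345642-115348981) measured 185, 139, 289 and 153 CPM in the imBAT libraries, against 81.8, 57.1 and 64.6 CPM in the sham libraries (log2 fold change 1.50 ± 0.26, adjusted p = 0.00347). Cox4i1, the regulatory subunit that binds ATP, measured 233, 215, 343 and 231 CPM in the imBAT libraries, against 119, 103 and 119 CPM in the sham libraries (log2 fold change 1.17 ± 0.17, adjusted p = 0.00193). Per kilobase of annotated exon, Cox8a had the highest level of the nuclear members of the complex, 326 CPM per kb in imBAT and 114 in sham. In each of these genes the groups were apart.

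The exception was Cox7a2l (chr17:83501918-83517330), which encodes the protein that tethers complex III to complex IV in respiratory supercomplexes. It measured 83.8, 70.8, 69 and 73.5 CPM in the imBAT libraries, against 79.8, 81.4 and 82.6 CPM in the sham libraries (log2 fold change -0.13 ± 0.09, adjusted p = 0.293). The imBAT values overlapped the sham values, and imBAT replicate 3, the highest imBAT library for most members, was here the lowest. Under upper-quartile scaling its log2 fold change was -0.37 and it was called lower (adjusted p = 0.0120), the only member called lower in any fit run. Of the 50-base stretches of Cox7a2l, 17.8% occur in the pseudogene Gm6969, so part of the Cox7a2l counts is uncertain. Gm6969 averaged 17.2 CPM in imBAT and 19.9 CPM in sham. The Cox7a2l paralogs Cox7a2 and Cox7a1 are described with the isoform families.

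Complex V, the ATP synthase, had the lowest median of the nuclear sets (0.77), with 14 of 17 tested members called higher. Atp5b, the catalytic beta subunit (chr10:128083273-128090391), measured 818, 653, 1272 and 738 CPM in the imBAT libraries, against 422, 315 and 357 CPM in the sham libraries (log2 fold change 1.25 ± 0.24, adjusted p = 0.00433). Atp5a1, the alpha subunit that forms the catalytic head with it, measured 649, 544, 926 and 591 CPM in the imBAT libraries and 426, 337 and 363 CPM in the sham libraries (log2 fold change 0.85 ± 0.19, adjusted p = 0.00888). Per kilobase of annotated exon, Atp5b stood at 205 CPM per kb in imBAT and 86.1 in sham, and Atp5a1 at 216 in imBAT and 119.7 in sham. The length used covers all annotated exons of a gene, 4237 bases for Atp5b and 3135 for Atp5a1. Their protein-coding transcripts hold 1867 and 2901 different 50-base stretches. That length goes further beyond the coding transcripts in Atp5b, so the levels of this pair cannot be ranked. Atp5k, the e subunit at the interface of synthase dimers, measured 38, 21.4, 59.1 and 30.2 CPM in the imBAT libraries and 16.4, 13.4 and 15 CPM in the sham libraries (log2 fold change 1.31 ± 0.31, adjusted p = 0.0103). Atp5l, the g subunit of the same interface, measured 34.7, 30.4, 41.8 and 30.01 CPM in the imBAT libraries, against 24.4, 28 and 26.6 CPM in the sham libraries (log2 fold change 0.38 ± 0.14, adjusted p = 0.051). Its groups were apart but it was not called, and it was called without imBAT replicate 2 or 4 (0.0362 and 0.0425) and by DESeq2 (0.0471). Of its 50-base stretches 84.8% occur in other annotated genes, so its counts are uncertain. Atp5mpl, a small subunit of the membrane part, was not called either (log2 fold change 0.41 ± 0.20, adjusted p = 0.137).

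The rotor ring of the ATP synthase is built of subunit c, for which mammals have a family of 3 nuclear genes, Atp5g1, Atp5g2 and Atp5g3, whose mature products are the same. Atp5g3 measured 150.2, 115, 225 and 134 CPM in the imBAT libraries, against 79.1, 61.9 and 63.9 CPM in the sham libraries (log2 fold change 1.19 ± 0.23, adjusted p = 0.00458), with the groups apart. Atp5g1 measured 30.6, 25.4, 27.1 and 24.1 CPM in the imBAT libraries and 23.2, 15.6 and 19.5 CPM in the sham libraries (log2 fold change 0.46 ± 0.15, adjusted p = 0.0374). Its groups were apart by a small margin, and the call was lost without imBAT replicate 1 or 3 or sham replicate 2 or 3 (adjusted p = 0.0760 to 0.136) and under upper-quartile scaling (0.184). Atp5g2 measured 54.8, 52, 54.2 and 44 CPM in the imBAT libraries and 47.4, 39.1 and 39.6 CPM in the sham libraries (log2 fold change 0.28 ± 0.12, adjusted p = 0.0775), with overlapping groups, and was called without imBAT replicate 4 or sham replicate 1 (0.0386 and 0.0407). Of its 50-base stretches 38.3% occur in other annotated genes. The log2 ratio of Atp5g3 to Atp5g2 was 1.45, 1.14, 2.05 and 1.60 in imBAT, against 0.74, 0.66 and 0.69 in sham. Every imBAT ratio was above every sham ratio, and the difference of the means was 0.87 (two-sided exact permutation test, p = 0.0571, 0.114 after adjustment over 8 isoform pairs). With 4 against 3 libraries 0.0571 is the smallest p that the 35 splits allow, so no ratio can pass 0.05 in this test. The log2 ratio of Atp5g1 to Atp5g2 differed by 0.19 (exact permutation p = 0.114, adjusted 0.183).

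The start regions of these 3 genes are shown because they encode the same mature protein and differed in fold change. Each runs 5′ to 3′ on the strand of the gene, from 250 bases before to 50 bases after the annotated start, and was taken from RefSeq (GRCm38.p6). Capitals mark matches, on either strand, to the letters of factors known to bind promoters of respiratory genes: GCGCA, any base and then GCGC for NRF1, CCGGAAG for ETS factors such as GABP, TCAAGGTCA for oestrogen-related receptors, AAGATGGCG for YY1 and CCAAT for NF-Y. Overlapping matches were counted singly.
Atp5g3 (chr2:73911277-73911576, minus strand): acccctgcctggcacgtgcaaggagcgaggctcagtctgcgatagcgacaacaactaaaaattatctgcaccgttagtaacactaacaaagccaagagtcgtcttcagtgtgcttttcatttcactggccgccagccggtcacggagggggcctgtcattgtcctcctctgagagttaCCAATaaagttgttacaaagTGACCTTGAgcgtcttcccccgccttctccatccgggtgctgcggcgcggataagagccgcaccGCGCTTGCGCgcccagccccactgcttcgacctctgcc
Atp5g1 (chr11:96075582-96075881, minus strand): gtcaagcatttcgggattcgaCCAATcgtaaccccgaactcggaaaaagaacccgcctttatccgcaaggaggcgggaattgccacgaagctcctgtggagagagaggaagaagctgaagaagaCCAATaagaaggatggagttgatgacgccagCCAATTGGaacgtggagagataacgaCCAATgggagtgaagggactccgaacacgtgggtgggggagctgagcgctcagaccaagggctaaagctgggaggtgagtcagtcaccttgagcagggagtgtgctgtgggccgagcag
Atp5g2 (chr15:102670998-102671297, minus strand): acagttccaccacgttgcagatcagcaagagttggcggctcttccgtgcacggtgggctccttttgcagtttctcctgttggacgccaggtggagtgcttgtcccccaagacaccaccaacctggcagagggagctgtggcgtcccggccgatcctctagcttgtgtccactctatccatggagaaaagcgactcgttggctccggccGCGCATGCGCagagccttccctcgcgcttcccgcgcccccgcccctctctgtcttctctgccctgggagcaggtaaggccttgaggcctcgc
The Atp5g3 window, of the gene with the largest difference, holds 1 NRF1, 1 oestrogen-related receptor and 1 CCAAT match. The Atp5g1 window holds 5 CCAAT matches, a pair of which overlap on opposite strands, and no other. The Atp5g2 window holds 1 NRF1 match. A match is a run of letters and no evidence of binding.

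Promoters of the members as a set were compared with all promoters of the same table, over 74 windows of 69 member genes and 32851 windows in all. NRF1 letters were in 24.3% of member windows and 4.60% of all windows. ETS letters were in 23.0% and 8.86%, YY1 letters in 9.46% and 1.40%, and the receptor letters in 2.70% and 0.423%. CCAAT, which is short and common, was in 43.2% and 37.4%. The windows of genes with more than 1 start overlap and are not independent, and the shares are given with no test.

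Complex IV holds the other isoform families. COX8, a small membrane-spanning subunit, exists as Cox8a in most tissues and as Cox8b, which in the mouse is used in heart, skeletal muscle and brown fat. Cox8b (chr7:140898945-140900446) had the largest log2 fold change of all members: it measured 9.14, 7.8, 28.5 and 5.35 CPM in the imBAT libraries, against 1.77, 0.482 and 2.06 CPM in the sham libraries (log2 fold change 3.14 ± 0.71, adjusted p = 0.00899), an 8.81-fold difference. All imBAT libraries were above all sham libraries, and imBAT replicate 3 was far above the other 3. Without that library the log2 fold change was 2.32 and the gene was still called (adjusted p = 0.00927). Cox8a measured 187, 155, 305 and 161 CPM in the imBAT libraries and 86.1, 58.5 and 66.4 CPM in the sham libraries (log2 fold change 1.52 ± 0.26, adjusted p = 0.0031). The log2 ratio of Cox8b to Cox8a was -4.34, -4.30, -3.42 and -4.89 in imBAT and -5.53, -6.65 and -4.95 in sham, a difference of 1.47 (exact permutation p = 0.0571, adjusted 0.114). Even in imBAT, Cox8b stood per kilobase at 35.2 CPM, against 326 CPM for Cox8a.

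The start regions of this pair are printed because these isoforms of 1 subunit differed in fold change, with capitals and source as above.
Cox8b (chr7:140900397-140900696, minus strand): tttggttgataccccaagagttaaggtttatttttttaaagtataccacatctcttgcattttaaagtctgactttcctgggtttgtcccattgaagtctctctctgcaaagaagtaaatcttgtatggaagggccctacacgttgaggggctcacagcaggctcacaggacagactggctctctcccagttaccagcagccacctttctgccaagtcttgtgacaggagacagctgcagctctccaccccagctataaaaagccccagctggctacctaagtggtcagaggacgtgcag
Cox8a (chr19:7217567-7217866, minus strand): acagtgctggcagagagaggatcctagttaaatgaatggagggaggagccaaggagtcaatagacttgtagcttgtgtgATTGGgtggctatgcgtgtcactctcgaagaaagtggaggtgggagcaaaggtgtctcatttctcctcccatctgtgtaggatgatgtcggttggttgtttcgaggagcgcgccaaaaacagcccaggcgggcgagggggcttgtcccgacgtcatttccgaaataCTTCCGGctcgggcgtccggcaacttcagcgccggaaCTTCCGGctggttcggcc
The Cox8a window holds 2 ETS matches and 1 CCAAT match, and the Cox8b window holds no match to any of the 5 motifs. That says only that these letters are not in this window.

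Since Cox8b is used in brown fat and in muscle, markers of both were read beside it. Of the 8 tested brown and beige adipocyte markers, 6 rose and 2 were not called (median log2 fold change 2.34, below the 3.10 of the white adipocyte markers). Their summed level was 74.98 to 202 CPM in imBAT and 19.2 to 44.8 in sham. Beside these marker counts, 24.3% of all genes tested were called higher and 19.3% lower, and 34.2% of the protein-coding genes were called higher. Dio2, Ebf2, Prdm16 and Ucp3 stayed called under all 14 alternatives. Their log2 fold changes there were 3.45 to 4.18, 1.92 to 2.51, 1.06 to 1.46 and 2.04 to 3.11. Otop1 also rose but lost its call in 3 of them. Cidea, a lipid droplet protein of brown fat, measured 9.22, 10.1, 39 and 4.48 CPM in the imBAT libraries and 5.26, 1.89 and 1.36 CPM in the sham libraries, and imBAT replicate 3 was again the highest. Its call (log2 fold change 2.47 ± 0.80, adjusted p = 0.0357) was lost without imBAT replicate 3 or sham replicate 2 or 3 (adjusted p = 0.0780 to 0.113), and with no expression filter (0.149), and its log2 fold change was 1.44 without imBAT replicate 3 and 3.27 without sham replicate 1. Ucp1, the uncoupling protein that defines brown fat, had 2, 8, 83 and 6 counts in imBAT and 8, 12 and 8 in sham and was too low to test, as was 1 other of the 10. Of 12 tested skeletal muscle markers 6 rose, 3 fell and 3 were not called (median 2.08). Their summed level, 167 to 337 CPM in imBAT and 346 to 376 in sham, was set mainly by Ttn, which fell, and does not follow the genes that rose. Acta1, the actin of skeletal muscle, measured 30.4, 3.97, 15.7 and 6.9 CPM in the imBAT libraries and 0.155, 0.362 and 1.16 CPM in the sham libraries and was highest in imBAT replicate 1. Myl1 and Myh1 stayed called higher under all 14 alternatives (log2 fold changes 3.94 to 4.93 and 2.72 to 3.48). Myh4 (4.97 to 7.48) lost its call in 1 and Ckm (1.84 to 3.30) in 6. Ttn and Eno3 stayed called lower under all 14 (-1.45 to -1.14 and -0.97 to -0.675). Cox7a1, another tissue isoform of complex IV, was not called (log2 fold change 0.49, adjusted p = 0.114). The marker lists were chosen by name, and their genes, Ucp3 among them, were not shown here to be particular to a single cell type. The part of muscle or brown-type cells in the Cox8b values was not tested.

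Of the other pairs, Ndufa4l2, a hypoxia-inducible relative of Ndufa4, measured 4.5, 5.38, 6.74 and 4.91 CPM in the imBAT libraries, against 1.92, 1.08 and 1.2 CPM in the sham libraries (log2 fold change 1.94 ± 0.27, adjusted p = 0.00159). Ndufa4 itself measured 78.9, 62.5, 122 and 65.9 CPM in the imBAT libraries and 38.6, 25.2 and 34.7 CPM in the sham libraries (log2 fold change 1.32 ± 0.26, adjusted p = 0.00482). Both separated the groups, and their log2 ratio was 0.60 higher in imBAT (exact permutation p = 0.0571, adjusted 0.114). Cox4i2, the lung and hypoxia isoform of COX4, measured 2.27, 1.995, 2.93 and 2.61 CPM in the imBAT libraries and 0.906, 1.63 and 0.893 CPM in the sham libraries (log2 fold change 1.10 ± 0.29, adjusted p = 0.0158), a call that was lost without sham replicate 1 or 3 (0.0542 and 0.0703). Its log2 ratio to Cox4i1 differed by -0.07 (exact permutation p = 0.857), and the sign turned without sham replicate 2 (0.26).

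The muscle and heart isoforms other than Cox8b did not pass the test. Cox7a1 measured 2.21, 2.99, 3.22 and 2.4 CPM in the imBAT libraries, against 1.9, 2.27 and 1.59 CPM in the sham libraries (log2 fold change 0.49 ± 0.23, adjusted p = 0.114), and the groups overlapped. Its common partner Cox7a2 measured 54.5, 37.8, 82.3 and 53.1 CPM in the imBAT libraries and 29.2, 22.4 and 25.2 CPM in the sham libraries and was called (log2 fold change 1.15 ± 0.24, adjusted p = 0.00653). The log2 ratio of Cox7a1 to Cox7a2 was 0.63 lower in imBAT (exact permutation p = 0.171, adjusted 0.196). Cox6a2 was near the limit of detection, at 0.866, 0.0327, 0.197 and 0.36 CPM in the imBAT libraries and 0.133, 0.241 and 0.563 CPM in the sham libraries, with a log2 fold change of 0.21 ± 0.89 whose sign turned without imBAT replicate 1 or sham replicate 1 and under upper-quartile scaling. Its log2 ratio to Cox6a1 was 1.49 lower in imBAT (exact permutation p = 0.171, adjusted 0.196).

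The testis isoforms were low or absent. Cox6b2 measured 1.64, 1.68, 1.87 and 2.47 CPM in the imBAT libraries, against 3.34, 2.15 and 2.23 CPM in the sham libraries (log2 fold change -0.43 ± 0.25, adjusted p = 0.197) beside a Cox6b1 of 98.6, 77.7, 151 and 86 CPM in the imBAT libraries and 53.7, 37 and 47 CPM in the sham libraries (log2 fold change 1.17 ± 0.24, adjusted p = 0.00603). The log2 ratio of Cox6b2 to Cox6b1 was -5.83, -5.45, -6.26 and -5.07 in imBAT, below the -3.97, -4.05 and -4.33 of sham (exact permutation p = 0.0571, adjusted 0.114). Cox7b2 had 0 counts in all 7 libraries, where a count of 0 allows up to 0.0490 to 0.0737 CPM per library. Cox8c had 2 counts in imBAT replicate 1 and 2 in each of sham replicates 2 and 3. The second Atp5o identifier, which overlaps the first on chromosome 16, also had 0 counts in every library. These 3 were not tested.

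**Figure D3:**
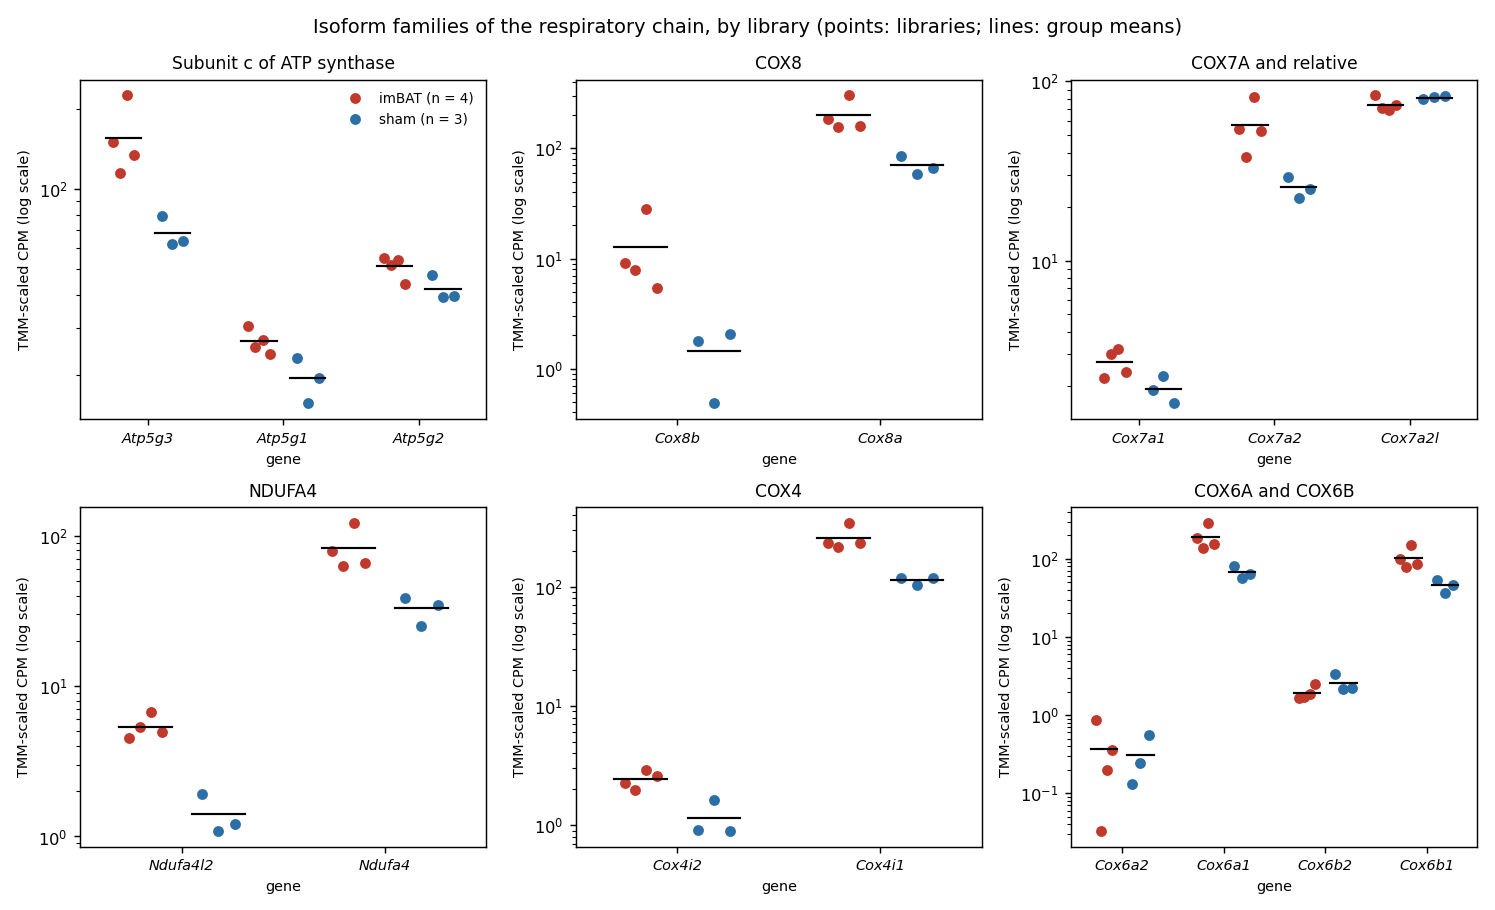
TMM-scaled CPM (vertical axis, log scale) of the isoform families, a point for each library and a line for each group mean. Atp5g3, Cox8b and Ndufa4l2 separate the groups widely, whereas Atp5g2, Cox7a1, Cox7a2l and Cox6a2 overlap.

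The 13 mitochondrially encoded genes are transcribed from both strands of the mitochondrial genome as long precursors that are cut into single mRNAs. Of these genes 10 rose and 3 were not called (median 0.94). Their share of all counts was 1.31 to 1.97% in imBAT, above the 0.909 to 1.12% of sham. mt-Nd4, a proton-pumping subunit of complex I, measured 1321, 1386, 1896 and 1010.5 CPM in the imBAT libraries, against 596, 395 and 497 CPM in the sham libraries (log2 fold change 1.50 ± 0.23, adjusted p = 0.00218). Its neighbour mt-Nd4l, which shares a messenger with it, measured 24, 28.4, 43.8 and 28.7 CPM in the imBAT libraries and 12, 10.6 and 11.6 CPM in the sham libraries (log2 fold change 1.45 ± 0.20, adjusted p = 0.00166). mt-Cytb, the haem protein at the heart of complex III (mitochondrial genome, bases 14145 to 15288), measured 3249.5, 3379, 5103 and 2828 CPM in the imBAT libraries, against 1597, 1144 and 1382 CPM in the sham libraries (log2 fold change 1.41 ± 0.23, adjusted p = 0.00252). In all 3 the groups were apart.

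The remaining called genes had log2 fold changes of 1.23 for mt-Nd2, 1.18 for mt-Nd3, 0.94 for mt-Nd5 and 0.79 for mt-Nd1 of complex I, 0.85 and 0.84 for mt-Co1 and mt-Co2 of complex IV, and 0.96 for mt-Atp6 of complex V. mt-Co1, the catalytic subunit of cytochrome oxidase and the member with the highest level per kilobase, measured 6107, 6293, 8861 and 4919 CPM in the imBAT libraries, against 4120.5, 3170.4 and 3573 CPM in the sham libraries (log2 fold change 0.85 ± 0.21, adjusted p = 0.0127). It was not called without sham replicate 2 or 3 (0.0605 and 0.0508), and mt-Nd1 not without sham replicate 2 (0.0560). mt-Nd6 is the only one of the 13 on the other strand. It measured 230.4, 158, 349.6 and 204 CPM in the imBAT libraries, against 196, 178 and 174 CPM in the sham libraries (log2 fold change 0.37 ± 0.24, adjusted p = 0.241), with overlapping groups. Its annotated end overlaps mt-Nd5 on the opposite strand, and the strand setting of the counting is not given in the sources used here, so reads of the 2 strands may have been mixed. mt-Co3 measured 70.7, 57.1, 140.1 and 128 CPM in the imBAT libraries, against 62.9, 55.9 and 67.9 CPM in the sham libraries (log2 fold change 0.67 ± 0.30, adjusted p = 0.104) and mt-Atp8 10.1, 2.6, 22.1 and 13.4 CPM in the imBAT libraries and 8.29, 8.11 and 7.92 CPM in the sham libraries (log2 fold change 0.57 ± 0.55, adjusted p = 0.428). Both overlapped between the groups, and both were called without imBAT replicate 2 (0.0243 and 0.0305).

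Levels per kilobase differed widely among these genes. In imBAT mt-Co1 stood at 4236 CPM per kb and mt-Cytb at 3182, but mt-Co3 at 126, mt-Atp6 at 124 and mt-Nd3 at 21.8, although genes of 1 strand share a precursor. Nuclear copies of mitochondrial DNA can take up reads of these genes. Of the 50-base stretches of mt-Co2, mt-Co3, mt-Atp6, mt-Nd4l and mt-Nd3, 98.0 to 100% occur in another annotated gene, and of those of mt-Nd4 and mt-Co1 62.2% and 51.1%. For mt-Nd1, mt-Nd6, mt-Cytb and mt-Atp8 the share was 0%. The search covered annotated transcripts only, so copies outside annotated genes would be missed. mt-Atp8, with no stretch found in another annotated gene, stood at 59.1 CPM per kb in imBAT, below the other 3 genes of that kind. Its annotated end overlaps the start of mt-Atp6. How reads with several matches were counted is not given in the sources used here. In an alternative chosen after seeing the data, genes were summed with nuclear copies that shared at least 20% of their 50-base stretches. mt-Nd2 and mt-Nd5, with 8.19% and 7.61% of their stretches in other annotated genes, were left as counted. In this fit mt-Co3 was called (log2 fold change 0.77, adjusted p = 0.0282), which made 11 of 13 called, and no other call among the members changed. The nuclear members shared less: their median was 2.31%, and 3 of 88 with transcripts reached 50%, namely Cox5b-ps, Atp5l and the second Atp5o identifier.

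**Figure D4:**
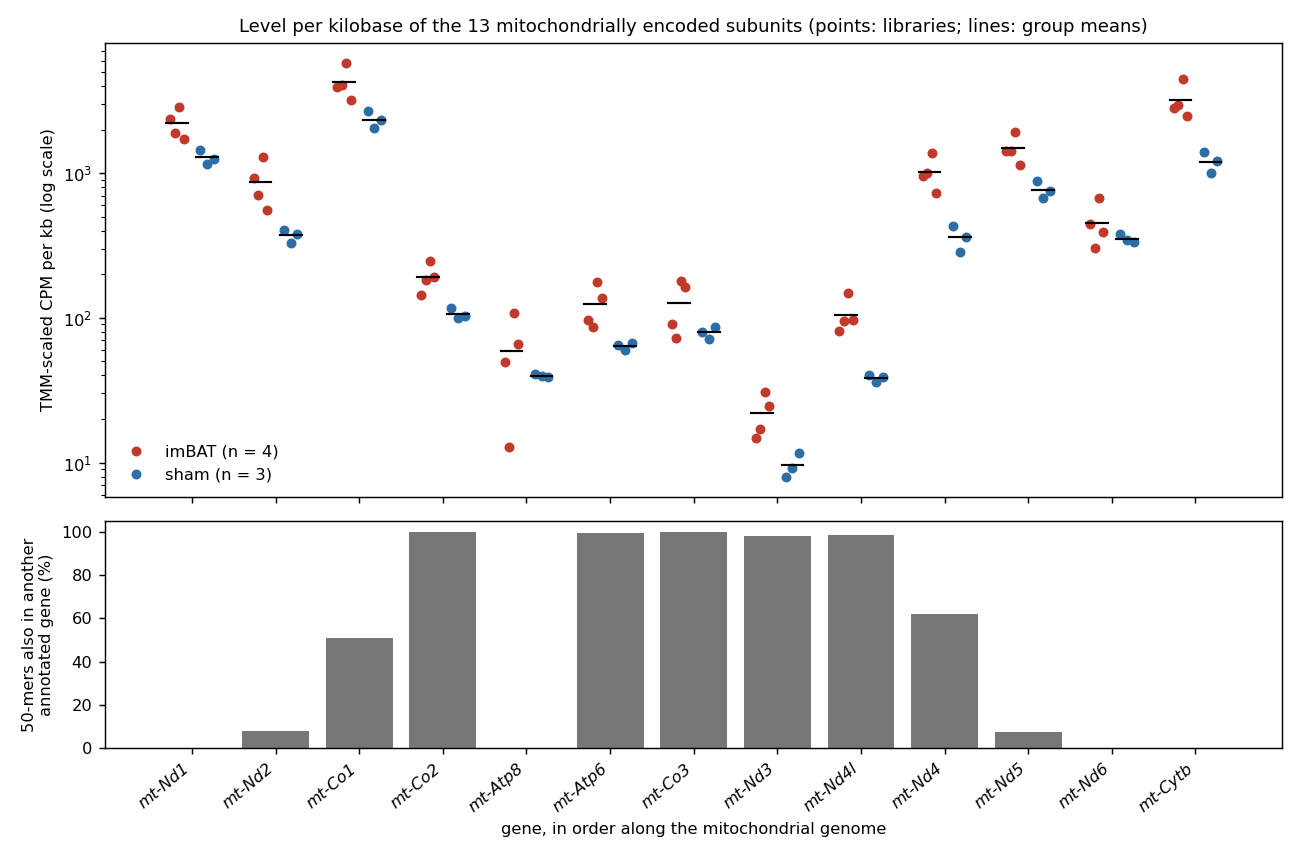
The upper panel gives the level per kilobase (TMM-scaled CPM per kb, log scale) of the 13 mitochondrially encoded genes in genome order, a point for each library and a line for each group mean; the lower panel gives the percentage of each gene's 50-base stretches that also occur in another annotated gene. Genes near 100%, such as mt-Co2, mt-Co3 and mt-Nd3, sit far below mt-Co1 and mt-Cytb in level, and the imBAT means lie above the sham means in all 13.

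Lists of genes that build, regulate or surround the complexes had smaller medians than the subunits. Beside the counts of this and the next lists, 34.2% of the 16106 protein-coding genes tested were called higher (5501 genes) and 3173 genes lower. Of 48 tested assembly factors, which help put the complexes together, 19 rose, 2 fell and 27 were not called (median 0.38). Higd2a and Acad9, needed for complexes IV and I in human cells, had log2 fold changes of 0.80 and 0.58 (adjusted p = 0.00306 and 0.00349). Cox17, the copper chaperone of complex IV, measured 11.3, 12.5, 11.4 and 13.3 CPM in the imBAT libraries, against 16.2, 20.1 and 18 CPM in the sham libraries (log2 fold change -0.58 ± 0.13, adjusted p = 0.00786), one of the pair that fell. The other, Cox20, named after its value was seen, was not called without imBAT replicate 1 or 2 or sham replicate 2 or 3, or with no expression filter. The count called higher was 10 without imBAT replicate 1 or 3, 5 and 7 without sham replicate 2 and 3, and 6 under upper-quartile scaling, where 5 were called lower. A reference list labelled outer membrane and matrix, which also holds inner-membrane proteins such as Timm23 and Immt, rose in 13 of 16 cases (median 0.51). That count was 8 without imBAT replicate 1, 3 and 4 without sham replicate 2 and 3, and 4 under upper-quartile scaling. Vdac1, the main channel of the outer membrane, measured 143, 131, 185 and 125 CPM in the imBAT libraries and 70.7, 53.5 and 59.7 CPM in the sham libraries (log2 fold change 1.25 ± 0.16, adjusted p = 0.00132), and Cs, citrate synthase of the matrix, 339.7, 279, 604 and 293 CPM in the imBAT libraries and 185, 153 and 168 CPM in the sham libraries (log2 fold change 1.17 ± 0.27, adjusted p = 0.00953).

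Of 15 genes for cardiolipin and coenzyme Q synthesis 10 rose and 1 fell (median 0.53). The gene that fell, Pdss1, was named after its value was seen and was not called without imBAT replicate 1, 2 or 4 or sham replicate 2 or 3, or with no expression filter, and under upper-quartile scaling 2 genes of the list were called lower. Coq7 and Coq9, partners in a late step of coenzyme Q synthesis, had log2 fold changes of 1.45 and 1.33 (adjusted p = 0.00693 and 0.00307).

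The regulators showed no common direction. Of 12 regulators of mitochondrial biogenesis 2 rose, 2 fell and 8 were not called (median 0.11), and under upper-quartile scaling 4 fell. Ppara, a nuclear receptor of fatty acid oxidation genes, measured 12.7, 7.16, 16.1 and 9.59 CPM in the imBAT libraries, against 2.74, 2.81 and 2.97 CPM in the sham libraries (log2 fold change 2.00 ± 0.28, adjusted p = 0.00165), and Esrrb also rose (log2 fold change 3.21 ± 0.61, adjusted p = 0.00445). Nrf1, whose letters were counted in the promoters above, measured 54.1, 66.2, 55.4 and 59.1 CPM in the imBAT libraries, against 84, 81.3 and 84 CPM in the sham libraries (log2 fold change -0.50 ± 0.10, adjusted p = 0.00446), and Gabpb1, a subunit of the ETS factor GABP, 30.5, 33.6, 22.9 and 30.7 CPM in the imBAT libraries and 44.3, 43 and 44.1 CPM in the sham libraries (log2 fold change -0.57 ± 0.13, adjusted p = 0.00918). Both fell, and all imBAT values were below all sham values. Ppargc1a, the coactivator PGC-1alpha, measured 5.86, 3.97, 12 and 8.49 CPM in the imBAT libraries and 12.2, 2.29 and 3.16 CPM in the sham libraries and was not called (log2 fold change 0.37 ± 0.59, adjusted p = 0.641). Its sham libraries disagreed: without sham replicate 1, its highest, it was called higher (log2 fold change 1.47, adjusted p = 0.0376), and without sham replicate 2 the sign turned (-0.019). Of 24 genes for upkeep and transcription of mitochondrial DNA 3 rose, 5 fell and 16 were not called (median 0.07). Tfam, which packages mitochondrial DNA and starts its transcription, measured 30.3, 29, 27.2 and 29.1 CPM in the imBAT libraries, against 36.2, 38.4 and 34.8 CPM in the sham libraries (log2 fold change -0.34 ± 0.09, adjusted p = 0.0168), a fall that was not called without sham replicate 2 (0.0809). Without sham replicate 2 this list had 1 gene called higher and 0 lower, and without sham replicate 3 it had 1 of each. The count called higher was 5 without imBAT replicate 4 and 1 under upper-quartile scaling, and the count called lower was 3 without sham replicate 1 and with no expression filter.

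**Figure D5:**
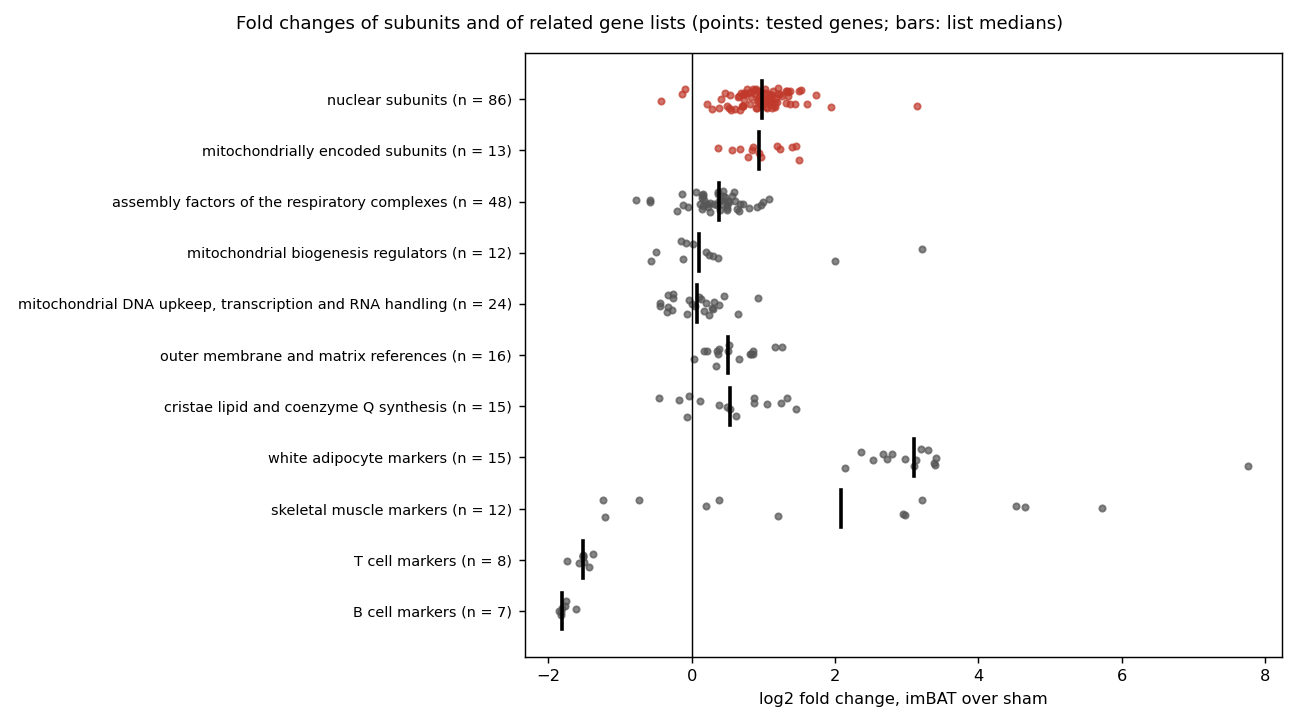
Log2 fold changes (imBAT over sham, horizontal axis) of the tested subunits, of related mitochondrial gene lists and of cell type markers, a point for each gene and a bar at each median. The subunit medians (0.98 nuclear, 0.94 mitochondrially encoded) lie right of those of the mitochondrial lists (0.07 to 0.53), far left of the white adipocyte markers (3.10) and on the other side of 0 from the T cell and B cell markers.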

How the data were processed

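The authors deposited raw counts per gene, in 1 table for the 7 libraries (55774 rows, of which 287 repeated a gene with identical counts and were dropped). A lipid tissue kit gave the RNA and STAR 2.7.9a aligned the reads to Ensembl 101's primary assembly, per the labels' protocols. The submitters' processing notes also name featureCounts 2.0.3, Salmon 1.5.2, Subread, edgeR and limma, with no role. No 2 libraries of a group agreed within sampling noise (chi-square per degree of freedom 22.5 to 241.2).

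All genes that passed edgeR's filter (minimum count 10) were fitted in R 4.3.3 with edgeR 4.0.16 (quasi-likelihood F test, robust, TMM, group alone, 5 residual degrees of freedom). P-values were Benjamini-Hochberg adjusted over 26393 genes. An SE is the log2 fold change divided by the square root of F. Ratios of isoforms used log2 of CPM plus 0.1. Coordinates, exon lengths and 50-base stretches came from GENCODE M21 (GRCm38), which held all 102 members. An exon length covers all annotated exons of a gene together, which can exceed the length of its coding transcripts. Alternatives were RLE and upper-quartile scaling, other filters, DESeq2 1.42.0, the titles' numbers as a block, mitochondrial genes left out, a pseudocount of 1 CPM and each library left out.

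The members, the lists and the rule for named genes were chosen with earlier results of these data known. Named were all mitochondrially encoded genes, isoform pairs, members not called or not tested, core subunits of complex I, all of complex II, Cyc1, Cycs, the 3 largest and 2 smallest log2 fold changes and the highest level per complex, and listed genes of small p. The fit was tested on simulated counts in which 100 genes changed at each of 2 sizes, far fewer than were called here. At a log2 fold change of 1 edgeR recovered 38% and DESeq2 71%, and at 2 they recovered 89% and 98%. False calls were 7 of 134 for edgeR and 63 of 232 for DESeq2. A gene that was not called may therefore still differ. The values of 1 member chosen for naming are not reported here.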

Additional observations from a re-analysis of the deposited data

Results flagged for a closer look

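In 4 members a single imBAT library, replicate 3 each time, stood far from the other 3 by Dixon's test at the 95% level. Ndufv1 was at 150 CPM in that library, with the others at 94.0 to 101 CPM. Cyc1 was at 216 CPM, with the others at 117 to 132. Cox4i1 was at 343 CPM, with the others at 215 to 233. Cox8b was at 28.5 CPM, with the others at 5.35 to 9.14. In all, 70 sets of values were checked, and chance marks about 1 in 20. All 4 genes stayed called without that library.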

How the results depend on the processing

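Of 59 tested members chosen for naming, 41 kept their direction and their side of the threshold under every alternative. RLE scaling, a filter on CPM and leaving out the mitochondrial genes changed no call among the members, DESeq2 added Atp5l, and testing with no filter on low counts lost Ndufa12. Upper-quartile scaling lost 13 calls and gave 1 member called lower (Cox7a2l) and 8180 genes called lower in all, against 5084. Leaving out each library in turn gave 67 to 91 members called higher (59 to 80 nuclear, 8 to 12 mitochondrially encoded), 0 called lower, and 7519 to 11403 genes called in all, 3024 to 5097 of them lower. The lowest of these counts came without sham replicate 2, and without sham replicate 3 there were 72 members called higher. Signs turned in 4 results with no call: Cox6a2 (-0.047 under upper-quartile scaling, -0.73 to 0.95 without 1 library), Ppard (-0.037 under upper-quartile scaling), Ppargc1a (-0.019 to 1.47 without 1 library) and the Cox4i2/Cox4i1 ratio (-0.24 to 0.26 without 1 library). The cause was not tested. The number that opens each title, whose meaning the labels do not give, was shared by 3 imBAT and 3 sham libraries. Same-numbered libraries deviated together with correlations of 0.10, 0.11 and -0.01, and differently numbered ones with -0.14 to 0.04. The values 0.10 and 0.11 were the highest of all. All were small, and the numbers were not taken as pairs, but these values do not settle whether they mark pairs. With the number as replicate block 90 members and 10853 genes were called, mt-Atp8 and mt-Nd6 were gained (adjusted p = 0.0358 and 0.0421) and no member was lost. The block also ended the calls of Cox20 and Pdss1 and left 3 genes of mitochondrial DNA upkeep called lower. Depth limits Cox6a2, Cox7b2, Cox8c and Ucp1, and the loss of calls without a sham library leaves 2 sham libraries in the fit.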
